A study of Mus musculus with 16 samples.

Results

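Pim1, the mouse gene for the serine/threonine kinase Pim-1, was followed as a prey of a DNA break made in Myc. Its members were all rows whose gene name was exactly Pim1, a choice that used the authors' gene names and no measured level. They came to 138 junctions, all on chromosome 17, of 33479 junctions outside chromosome 15 and 141167 junctions in all, in 16 libraries. By gene name, Pim1 was 1 of 6871 names outside chromosome 15. Each junction is the place where a genomic end (the prey) joined a chosen break (the bait), as mapped by high-throughput genome-wide translocation sequencing (HTGTS).

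The break was made at 25 I-SceI sites placed together within the first Myc intron of one allele (chromosome 15), carried by every group, and a retrovirus brought in the I-SceI enzyme with GFP. All cells were IgM+ B cells from the spleens of 129sv mice aged 6 to 8 weeks. In 3 groups the cells were activated by an antibody to CD40 at 1 µg/mL with the cytokine IL4 at 20 ng/mL, infected at 24 h and harvested at day 4. These groups were WT (n = 4), ATM-deficient, labelled ATM-/- (n = 3), and WT with the ATM kinase inhibitor KU55933 at 10 µM from infection on (n = 3). The other 2 groups received anti-RP105 antibody (2 µg/mL), were infected later, at 48 h, and collected at day 5, and are labelled WT (n = 3) and ATM-/- (n = 3). The labels do not say whether libraries of a group came from separate mice, so the p-values measure only the spread between these libraries.

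Pim-1 phosphorylates proteins of the cell cycle and of cell survival, and its gene is switched on by cytokine signals through the JAK and STAT proteins. AID, the deaminase that starts class switching, acts mainly on the switch regions of the Igh locus, but also mutates and breaks other transcribed genes of activated B cells. Pim1 is among these off-targets, is a classic site of retroviral insertion in mouse lymphoma, and is a frequent target of aberrant somatic hypermutation in human B cell lymphoma. Anti-CD40 with IL4 drives class switching to IgG1 and IgE, while antibodies to RP105, a surface protein of B cells, drive proliferation with little switching.

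The libraries held 4484 to 18264 rows, of which 586 to 5604 were junctions outside chromosome 15, so shares from the smaller libraries are less firm. The WT and ATM-deficient anti-CD40/IL4 libraries were read on a 454 instrument and the others on a MiSeq. KU55933 against untreated WT therefore cannot be told apart from the sequencer, nor can the stimulus within each labelled genotype. The times of infection and harvest also differed with the stimulus. Only the KU55933 libraries combined anti-CD40/IL4 with a MiSeq. The 2 RP105 groups differed in the opposite direction to the same labels under anti-CD40/IL4 in more than 1 respect. Junctions outside chromosome 15 were a larger part of all junctions in every ATM-deficient than in any WT library under anti-CD40/IL4. In replicates 1 they were 2192 of 7725 and 1307 of 6899. Under RP105 they were a smaller part in every library labelled ATM-deficient than in any labelled WT. There replicates 1 had 586 of 6304 and 1624 of 7278. The part of chromosome 12 below 110 Mb held 6.54% ± 1.41 (SD, n = 3) of junctions in ATM-deficient and 2.48% ± 0.458 (SD, n = 4) in WT libraries under anti-CD40/IL4, but 3.63% ± 0.833 (SD, n = 3) in the libraries labelled ATM-deficient and 8.72% ± 0.541 (SD, n = 3) in those labelled WT under RP105. Whether this turn comes from the labels or from the stimulus was not tested, and the RP105 genotypes are given as labelled. Of the names of lineage genes, 6 of 7 B cell genes were hit, with 108 junctions, against 2 junctions in 5 T cell genes, 2 in 4 myeloid genes and 0 at the names of T cell receptor loci.

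The Pim1 junctions lay on chromosome 17 between positions 29628020 and 29632438 of build mm9, a span of 4419 bases. The gene is on the plus strand in RefSeq, which on another build, GRCm38.p6, lists 2 starts for it 2300 bases apart. The letters around the second start matched mm9 position 29630030, inside the span, while no letters of the first start were covered by the deposited sequences. No mm9 annotation was used here, so exons and introns are not assigned. The densest 250 bases, chr17:29628445-29628694 (mm9, plus strand), held 28 of the 138 junctions (20.3%) from 9 libraries, at 25 positions. They are shown because they hold the largest cluster of junctions, with capitals marking the bases where a prey began.

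Pim1 densest stretch: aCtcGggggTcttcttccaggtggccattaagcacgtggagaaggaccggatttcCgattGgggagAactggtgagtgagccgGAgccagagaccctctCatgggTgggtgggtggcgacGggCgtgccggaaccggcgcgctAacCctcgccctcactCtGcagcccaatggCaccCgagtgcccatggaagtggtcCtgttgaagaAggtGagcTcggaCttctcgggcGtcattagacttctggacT

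In this stretch 4 junctions came from WT, 4 from ATM-deficient, 19 from KU55933 and 1 from labelled WT RP105 libraries, with 16 on the plus and 12 on the minus strand. Its bases were 61.6% G or C, against 52.4% over the letters of the whole span. The capitals are spread over the stretch and do not pile up on 1 base.

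In 6 plus-strand junctions the prey lay mostly in bases masked as repeats. All 6 began in 1 place, from position 29630371 to 29630392, each with 46 matching bases outside the mask. Whether they were mapped correctly was not tested. They came from ATM-deficient replicate 1 (2 junctions), KU55933 replicates 1 and 2 (1 each) and labelled WT RP105 replicate 3 (2 junctions). These 6 were the only Pim1 junctions mostly in repeats, 4.35% of 138, against 7.61% of the other junctions outside chromosome 15. They include 2 of the 4 Pim1 junctions seen under RP105.

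Exact positions rarely recurred. A position and strand of Pim1 was found in more than 1 library 6 times, and 5 of these were shared by KU55933 replicates 1 and 2, which were sequenced in the same run. Those 2 libraries shared 186 positions outside chromosome 15, and labelled WT and labelled ATM-deficient RP105 replicates 3, also from 1 run, shared 142, while none of the other 118 pairs shared more than 37. Whether reads moved between libraries of a run was not tested. Of the 6, 1 was shared by libraries of different runs, position 29628618 on the plus strand in WT replicate 3 and KU55933 replicate 1. Both preys ended at the same base, 29628705, as did other plus-strand Pim1 preys. The deposited gap between bait and prey in the read was -1 and 26 bases there. Among sites shared within the run it also differed at 29628568 (42 and -5) and 29628676 (0 and -2), and was equal at the rest. The shared sites outside the stretch above and outside repeats are shown in 40 bases each, chr17:29628223-29628262 and chr17:29629674-29629713 (mm9, plus strand), with capitals as before, to show how a repeated position sits among its neighbours.

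Pim1 repeated site near the start: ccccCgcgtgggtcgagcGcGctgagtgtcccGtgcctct
Pim1 repeated site in the middle: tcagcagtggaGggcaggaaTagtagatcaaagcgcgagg

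The first holds 5 junctions at 4 positions, 2 from ATM-deficient and 3 from KU55933 libraries. The second holds 3 junctions at 2 positions, all from KU55933 libraries.

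Under anti-CD40/IL4 Pim1 was hit in all 10 libraries, which held 134 of the 138 junctions (97.1%). In WT libraries Pim1 took 0.153% (2 of 1307), 0.659% (6 of 910), 0.265% (4 of 1509) and 0.547% (4 of 731) of the junctions outside chromosome 15. In ATM-deficient libraries it took 0.730% (16 of 2192), 0.258% (7 of 2714) and 0.0523% (1 of 1912). With KU55933 the values were 1.11% (40 of 3606), 0.663% (36 of 5432) and 0.321% (18 of 5604). All 3 groups overlapped, and within the ATM-deficient group the exact 95% binomial interval (Clopper-Pearson) of replicate 1, 0.418% to 1.18%, did not reach that of replicate 3, 0.00132% to 0.291%. The intervals cover counting error only, since PCR reads without molecular identifiers are not independent molecules.

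Under RP105 Pim1 was nearly absent. The libraries labelled WT had 0 of 1624, 0 of 956 and 3 of 2496 junctions (0.120%), where the counts of 0 allow shares of up to 0.185% and 0.314%, taken as 3 counts of the total, and the exact two-sided 95% intervals reach 0.227% and 0.385%. The libraries labelled ATM-deficient had 0 of 586, 0 of 744 and 1 of 1156 junctions (0.0865%), where 3 counts of the total are 0.512% and 0.403% and the exact intervals reach 0.628% and 0.495%. The highest share under RP105 lay below every WT share under anti-CD40/IL4, though the limits of the small libraries reach into the anti-CD40/IL4 range.

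**Figure D1:**
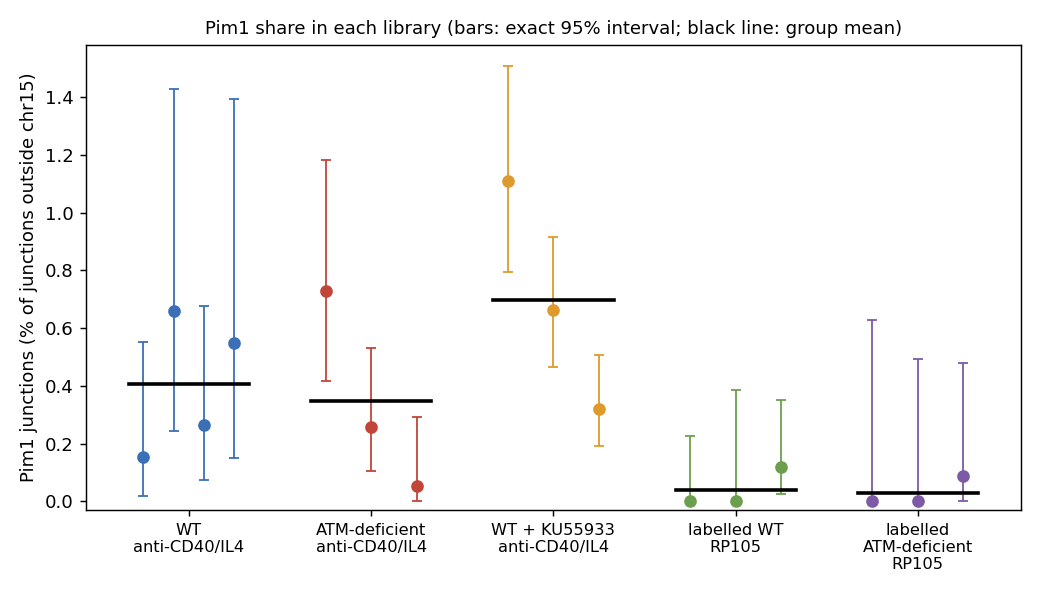
Share of Pim1 among junctions outside chromosome 15 (y axis, percent) in each of the 16 libraries, by group (x axis); points are libraries, bars their exact 95% binomial intervals and black lines group means. The KU55933 libraries range from 0.321% to 1.11%, and 4 of the 6 RP105 libraries sit at 0.

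The pooled rank of Pim1 among gene names was 5 in each anti-CD40/IL4 group, behind 4 other names. It was 4 to 13 in single anti-CD40/IL4 libraries except ATM-deficient replicate 3, where its 1 junction tied for rank 99. Under RP105 the pooled rank was 55 in labelled WT and 150 in labelled ATM-deficient libraries, both tied. In the RP105 replicates 3 it was 19 and 52. With all 16 libraries weighted equally, Pim1 ranked 6 with a mean share of 0.310% ± 0.335 (SD, n = 16). The names just above it were Mmp24, a matrix metalloproteinase gene, at 0.595% ± 0.501, and Il4ra, the IL4 receptor chain, at 0.500% ± 0.488. Just below came Fermt2, an adaptor of integrins, at 0.244% ± 0.237, and Apbb1, a binding partner of the amyloid precursor protein, at 0.228% ± 0.197. The means of these 4 differed from that of Pim1 by less than the SD over libraries. That SD includes the difference between stimuli and does not use that the names were counted in the same libraries. Mmp24, Fermt2 and Apbb1 did not share the pattern of Pim1 over groups, while Il4ra correlated with it (Pearson r = 0.780 over the 16 libraries). Mmp24 averaged 0.318% in WT under anti-CD40/IL4 and 0.969% in labelled WT under RP105, and Pim1 0.406% and 0.0401%. Pim1 lay above Mmp24 in 7 libraries and below it in 8, and above Il4ra in 1 and below it in 11.

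ATM deficiency was compared with WT under anti-CD40/IL4 to ask whether the loss of this break-signalling kinase changes joining to Pim1. The mean share was 0.347% ± 0.347 (SD, n = 3) in ATM-deficient and 0.406% ± 0.237 (SD, n = 4) in WT libraries, a difference of -0.0594 percentage points that lay within the spread of either group (two-sided exact permutation test, p = 0.800, adjusted p = 0.960 over 6 comparisons, smallest possible p 0.0286). In edgeR's quasi-likelihood test over 162 names with at least 10 junctions, the log2 fold change was -0.09 (SE 0.61, adjusted p = 0.982), and 0% of names were called, with 8 at an unadjusted p under 0.05. DESeq2 called 0 names in this comparison and in the other comparisons of genotype or inhibitor, the interaction included. In the 2 runs that held both groups, the WT and ATM-deficient shares were 0.265% and 0.258% in one, and 0.547% and 0.0523% in the other. The direction of the difference turned in 7 of 21 alternatives, so no direction is given. Over the same libraries the summed share of the switch regions Smu, Sg1 and Se was 4.29% ± 0.803 in ATM-deficient and 11.9% ± 1.27 in WT, without overlap.

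KU55933 gave the highest Pim1 shares, 0.698% ± 0.395 (SD, n = 3) against 0.406% ± 0.237 (SD, n = 4) in untreated WT, a ratio of 1.72. The groups overlapped, and neither the exact permutation test (two-sided p = 0.257, adjusted p = 0.514) nor edgeR (log2 fold change 0.86, SE 0.54, adjusted p = 0.431) called the difference, where 0.617% of the 162 names were called. Pooled counts were 94 of 14642 and 16 of 4457, a ratio of 1.79 with an exact 95% interval of 1.05 to 3.26 for counting error alone. Junctions outside chromosome 15 were a larger part of all junctions in every KU55933 than in any WT library. In replicates 1 they were 3606 of 10528 and 1307 of 6899, so over all junctions the ratio would be larger. With chromosome 15 beyond 1 Mb of the break in the library size, the log2 fold change was smaller, 0.69 (edgeR adjusted p = 0.516). It was larger, 1.60, with TMM factors (edgeR adjusted p = 0.0513) and 1.76 in DESeq2 (adjusted p = 0.649). Without KU55933 replicates 1 and 2, which shared a run and positions, it was -0.20 (edgeR adjusted p = 0.916), a value that rests on 1 KU55933 library, replicate 3, the lowest of the group, and assumes that it varies like the other groups. Over all alternatives the adjusted p ranged from 0.0513 to 0.931. ATM-deficient libraries against those with KU55933 had a log2 fold change of -0.96 (SE 0.52, edgeR adjusted p = 0.378), where 0% of names were called and 17 had an unadjusted p under 0.05. The two-sided exact permutation p of this difference was 0.400 (adjusted p = 0.600), in a design that cannot go below 0.1.

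The stimulus was compared within each labelled genotype. In labelled WT the mean share was 0.0401% ± 0.0694 (SD, n = 3) under RP105 and 0.406% ± 0.237 (SD, n = 4) under anti-CD40/IL4, with no overlap between the groups. The two-sided exact permutation test gave p = 0.0571 (adjusted p = 0.343). In edgeR the log2 fold change was -2.60 (SE 0.86, adjusted p = 0.0709), which missed the threshold, where 1.85% of names were called. Pooled counts were 3 of 5076 and 16 of 4457, a ratio of 0.165 with an exact 95% interval of 0.0307 to 0.575 for counting error alone. The sign was negative in all 21 alternatives and the call was made in 5 of them, with adjusted p-values from 0.00770 to 1.00 over the 21. It was made with only names of at least 30 junctions (edgeR adjusted p = 0.00953) and without junctions mostly in repeats (-3.84, edgeR adjusted p = 0.00770), and not with TMM factors (edgeR adjusted p = 0.142) or in DESeq2 (adjusted p = 0.820). Leaving out WT anti-CD40/IL4 replicate 1 gave an edgeR adjusted p = 0.0402, and leaving out replicate 2 gave 0.208. Labelled WT RP105 replicate 3 holds all 3 junctions of its group, so the call made without it (edgeR adjusted p = 0.0185) compares against a group at 0.

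In libraries labelled ATM-deficient the mean share was 0.0288% ± 0.0499 (SD, n = 3) under RP105 and 0.347% ± 0.347 (SD, n = 3) under anti-CD40/IL4, and the groups overlapped through ATM-deficient anti-CD40/IL4 replicate 3. The edgeR log2 fold change was -2.96 (SE 1.11, adjusted p = 0.213), where 1.85% of names were called, and the call was made in 2 of 20 alternatives, with adjusted p-values from 0.00198 to 1.00. With TMM factors the value was -4.21 (edgeR adjusted p = 0.00198), in DESeq2 it was -4.21 (adjusted p = 0.111), and without ATM-deficient anti-CD40/IL4 replicate 1 it was -1.92 (edgeR adjusted p = 0.559). The two-sided exact permutation p was 0.200 (adjusted p = 0.514), in a design that cannot go below 0.1. Pooled counts were 1 of 2486 and 24 of 6818, a ratio of 0.114 with an exact 95% interval of 0.00278 to 0.701. The labelled genotypes under RP105 did not differ beyond their spread, with a log2 fold change of -0.46 (SE 1.50, edgeR adjusted p = 1.00) on 1 and 3 junctions (two-sided exact permutation p = 1.00 for the shares), and 0% of names were called, with 4 at an unadjusted p under 0.05. Their interaction with the stimulus had a log2 value of -0.37 (SE 1.57, edgeR adjusted p = 1.00), where 0% of names were called and 12 had an unadjusted p under 0.05.

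No relation between Pim1 and the switch regions was detectable from library to library. Across the 10 anti-CD40/IL4 libraries the Pearson correlation of the Pim1 share with the summed share of Smu, Sg1 and Se was r = 0.0151 (permutation p = 0.967) and the Spearman correlation was 0.0303 (permutation p = 0.945). Without the 2 libraries farthest from the median switch share, r was 0.206 (permutation p = 0.626), and over the 7 libraries without KU55933 r was 0.0935 (permutation p = 0.838), with every adjusted p at 0.967 over these 6 values. Pim1 had 3.48 ± 2.18 (SD, n = 4) junctions per 100 switch region junctions in WT, 8.19 ± 8.83 (SD, n = 3) in ATM-deficient and 9.16 ± 5.20 (SD, n = 3) in KU55933 libraries, and these ranges overlapped. The WT libraries had the highest switch shares of the 3 groups, and their Pim1 shares lay among those of the others.

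**Figure D2:**
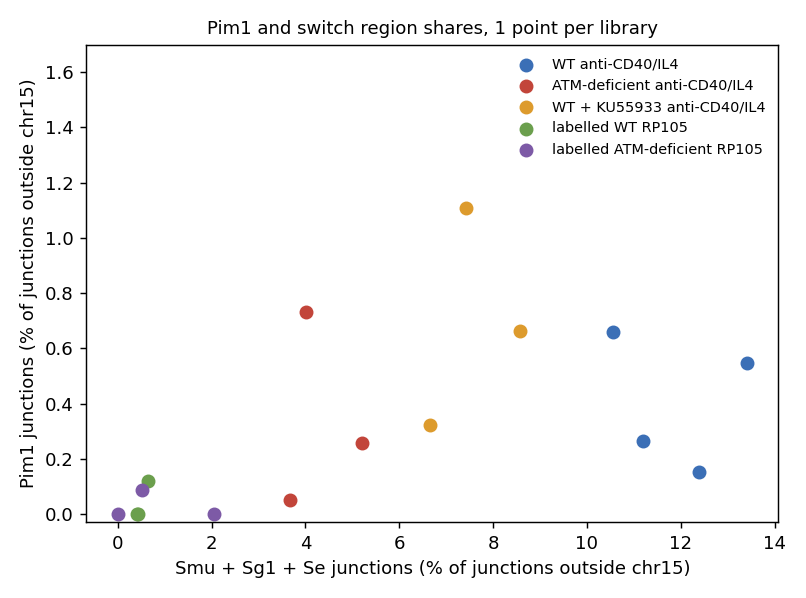
Pim1 share (y axis) against the summed share of Smu, Sg1 and Se (x axis), both as percent of junctions outside chromosome 15, with 1 point per library coloured by group. The WT libraries lie farthest right without being higher, and the RP105 libraries gather near the origin.

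Along the gene, junctions were densest at the low end. The first 1000 bases from the lowest junction held 65 of 138 (47.1%, exact 95% interval 38.6% to 55.8%), and the median distance was 1176.5 bases. In bins of 500 bases the counts from the lowest junction on were 36, 29, 10, 11, 13, 22, 3, 9 and 5. A second, smaller rise thus lay 2500 to 2999 bases in, with 22 junctions. The share in the first 1000 bases was 62.5% in WT (10 of 16), 45.8% in ATM-deficient (11 of 24) and 45.7% in KU55933 libraries (43 of 94), with exact 95% intervals of 35.4% to 84.8%, 25.6% to 67.2% and 35.4% to 56.3% that overlap. The 4 RP105 junctions lay 641, 2360, 2372 and 3933 bases from the lowest junction, which need not be where the gene starts. The 300 bases around the second RefSeq start, 1760 to 2059 bases in, held 4 junctions, all from KU55933 libraries.

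**Figure D3:**
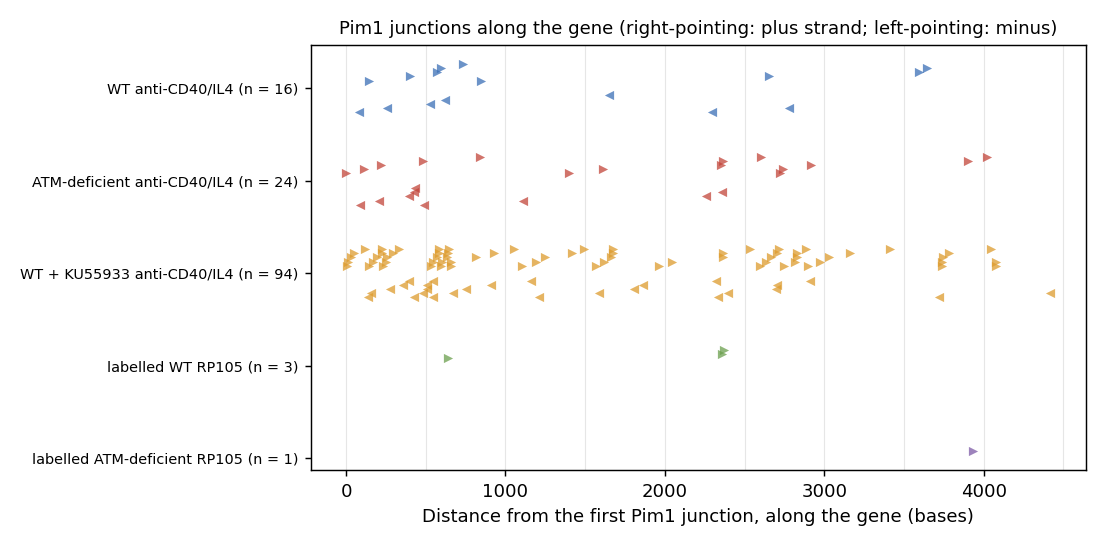
Each of the 138 Pim1 junctions by its distance in bases from the lowest one along the gene (x axis), in rows by group; right-pointing marks are plus-strand and left-pointing marks minus-strand junctions, and the small vertical shifts within a row only separate marks. Junctions crowd in the first 1000 bases in the 3 anti-CD40/IL4 groups.

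The cluster was narrow. Counted whatever the gene name, the span held 31.2 junctions per kb, the 5 kb before it 2.60 per kb and the 5 kb after it 2.40 per kb. From 5 to 100 kb away the density was 0.126 per kb before and 0.0211 per kb after the span, and over the rest of chromosome 17 more than 1 Mb away it was 0.0142 per kb. The flanks of 5 kb held 25 junctions without the name Pim1, of which 15 were from KU55933, 7 from ATM-deficient, 1 from WT and 2 from RP105 libraries. The edges of the span are only the outermost junctions named Pim1, and junctions continued past them. The 1 kb bin just before the span held 8, and the bin that began 5 kb from the lowest junction held 10. A count over the span with 2000 bases added on each side gave 161 junctions. Within 1 Mb, 16 other gene names were hit, none more often than Btbd9 with 12 junctions in 8 libraries, far beyond the span. Srsf3, a splicing factor gene, had 5.

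**Figure D4:**
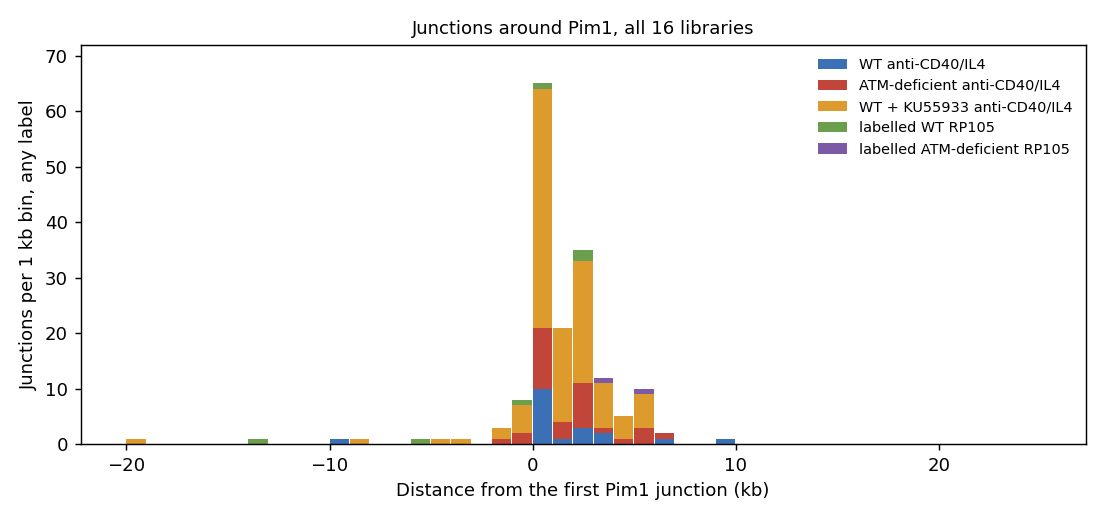
Junctions of all 16 libraries per 1 kb bin (y axis), whatever their gene name, by distance in kb from the lowest Pim1 junction (x axis), stacked by group. The highest bin, the first kb from the lowest Pim1 junction on, holds 65 junctions, and bins more than 10 kb away hold 0 or 1.

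Pooled over libraries, joining to Pim1 leaned to 1 strand. A plus-strand prey runs from the junction toward higher coordinates, which is the direction of Pim1 transcription. Of 138 junctions 95 were plus (68.8%, exact 95% interval 60.4% to 76.4%), against 49.7% of the other 33341 junctions outside chromosome 15. This interval takes each junction as independent, and 94 of the 138 came from KU55933 libraries. The plus share was 56.2% in WT (9 of 16), 62.5% in ATM-deficient (15 of 24) and 71.3% in KU55933 libraries (67 of 94), and all 4 RP105 junctions were plus. The exact 95% intervals were 29.9% to 80.2% in WT, 40.6% to 81.2% in ATM-deficient and 61.0% to 80.1% in KU55933 libraries. Of the groups, only KU55933 had an interval above the share of other junctions. Within KU55933 it was 32 of 40, 21 of 36 and 14 of 18. By place, 63.1% were plus in the first 1000 bases, 61.8% from there to 2500 bases and 84.6% beyond. Single names often depart from an even split, and Pim1 ranked 10 of 29 names with at least 30 junctions in its plus share, below Il4ra at 77.0%.

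AID prefers AGCT, which is common in switch regions, so its place among Pim1 junctions was described. AGCT, which reads the same on both strands, occurred 14 times in the span. Of the Pim1 junctions 26 (18.8%) lay within 10 bases of one, as did 8.74% of the positions with letters, and within 5 bases it was 13.8% against 5.22%. AGCT lay within the first 20 bases of the prey, however, in 11 of 138 Pim1 junctions (7.97%, exact 95% interval 4.05% to 13.8%), in 7.94% at Il4ra and in 9.92% at other named genes. At the switch regions it was 55.7% at Smu, 28.4% at Sg1 and 51.4% at Se. In this second measure Pim1 was near the other named genes, which include listed off-targets, and far below the switch regions. Unlike the first, it is not scaled to how often AGCT occurs in each region, so it does not show targeting or its absence. The assay also limits where a junction can be seen, since DNA was cut by HaeIII, which cuts at GGCC, and 92 of the 138 Pim1 preys ended at GGCC, with a median prey length of 100 bases (30 to 254). Most preys that did not end at GGCC came from KU55933 replicates 2 and 3, while nearly all of KU55933 replicate 1 ended there. The part of the cutting and of these ends in the positions was not tested.

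No difference in the join itself was detected between Pim1 and other junctions. The files give a gap between bait and prey in the read, below 0 where they overlap, whose zero point the headers do not define, so only differences are read. The median was -1 base for Pim1 and for the other junctions. The within-library mean of Pim1 minus others was 0.567 bases ± 3.06 (SD, n = 12 libraries), higher in 7 and lower in 5 (two-sided exact sign-flip permutation p = 0.537).

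Over the 16 libraries, the 3 of 41 other names with at least 20 junctions whose share was most like that of Pim1 were Socs2, a suppressor of cytokine signalling (Pearson r = 0.842), Bcl6, a germinal centre repressor (r = 0.840), and Bcl2l1, a survival gene of the BCL2 family (r = 0.823). These values are descriptions over points that share library, depth and stimulus. Socs2 averaged 0.0275% in WT, 0.0398% in ATM-deficient and 0.156% in KU55933 libraries, and had 0 junctions under RP105. Bcl6 averaged 0.0891%, 0.0304% and 0.283%, with 1 junction under RP105, and Bcl2l1 0.107%, 0.178% and 0.208%, with none.

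Il4ra and Il21r, cytokine receptor genes that are neighbours on chromosome 7, gave reference values. Il4ra took 0.470% ± 0.276 (SD, n = 4) in WT, 0.539% ± 0.246 (SD, n = 3) in ATM-deficient and 1.30% ± 0.350 (SD, n = 3) in KU55933 libraries, where its lowest KU55933 share, 0.910%, lay above the highest of the other 2 groups, 0.730%. Il21r took 0.161% ± 0.0405, 0.127% ± 0.0503 and 0.494% ± 0.152, again with KU55933 above and no overlap. Pim1 differed from both in that its KU55933 and WT shares overlapped. That difference between genes was not tested.

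Of 33 other listed AID off-target genes, 27 were hit by exact name outside chromosome 15, and 16 had the 10 junctions needed for the test. Il4i1 counted as not hit, but the joint name Nup62-il4i1 /// Il4i1 had 37 junctions. That name was tested outside the list and was not called in any of the 7 comparisons. Myc, on chromosome 15, could not be counted. By edgeR 0 of the 16 were called in any of the 7 comparisons, in which 0% to 1.85% of all names were called, so a count of 0 is near the background. In labelled WT 0 of the 16 had a positive log2 fold change for RP105 against anti-CD40/IL4, against 65 of all 162 names, with a median of -2.05 beside -0.15, and 4 of the 16 and 25 of the 162 had an unadjusted p under 0.05. In libraries labelled ATM-deficient 3 of 16 and 61 of 162 were positive for this contrast, with medians of -1.84 and -0.51. For KU55933 against untreated WT 14 of 16 and 101 of 162 were positive, with medians of 0.93 and 0.48, and 5 of the 16 and 23 of the 162 had an unadjusted p under 0.05. For ATM-deficient against KU55933 libraries 2 of 16 and 72 of 162 were positive, with medians of -1.02 and -0.18. For ATM deficiency against WT 9 of 16 and 81 of 162 were positive, with medians of 0.10 and 0.00. Pim1, at -2.60, -2.96, 0.86, -0.96 and -0.09 in these comparisons, had the sign of the list's median in each but the last. These comparisons share control libraries, and the 10 junctions needed were counted over all libraries. A listed gene could thus enter through the KU55933 libraries, which gave 40 of 46 junctions at Bcl6 and 18 of 38 at Rapgef1. The signs for KU55933 and RP105 are therefore partly set by this filter, and are descriptions that show no trait of the list. The listed genes tested included Cd83, an activation marker, with 67 junctions, Pax5, the B lineage factor, with 54, Bcl6 with 46, Aff3 with 42 and Rapgef1 with 38.

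Of 34 genes of the kinase's pathway (its sister kinases, the cytokine and CD40 signals upstream, and substrates), 17 were hit, and only Il4ra and Nfkb1, an NF-kappaB subunit, with 11 junctions, could be tested, with 0 called. Pim2, the sister kinase gene on the X chromosome, had 1 junction, from KU55933 replicate 2. Socs1, a feedback inhibitor of JAK kinases, and Traf3, an adaptor of CD40, had 9 each. Pim1 itself, with 138, stood above every other pathway name except Il4ra.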

How the data were processed

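The authors deposited 1 list per library with 1 row per junction, the prey position on mm9 (per the submitters' processing notes) and a gene name. Which aligner, filters and annotation they used is not given in the sources used here. The deposited column named as a PCR count, a count per junction in 7 files, entered no test. From 141227 rows, 56 repeated rows, 3 mitochondrial rows and 1 broken record were dropped. Shares are percentages of junctions outside chromosome 15, whose break site draws most junctions, and 45.0% of these carried no gene name. Counts per name were tested with edgeR 4.0.16 (quasi-likelihood, all 16 libraries, library size outside chromosome 15, at least 10 junctions, Benjamini-Hochberg over all names, threshold 0.05), and the code was tested on simulated data. Shares were compared by exact permutation and correlations by 100000 permutations (numpy). DESeq2 1.42.0, TMM factors, other bases, distinct positions, blocks and libraries left out were alternatives. Letters were assembled from the deposited target sequences, which covered 84.2% of the span without conflict (1 stretch is not reported here), and promoters came from RefSeq (GRCm38.p6). The genes named were Pim1, the 2 names on each side of it in mean share, the 3 most like it, reference and neighbouring genes and 2 lists. The gene, the lists and the tests were chosen with earlier results of these data known.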

Additional observations from a re-analysis of the deposited data

How the results depend on the processing

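No comparison of Pim1 was called in the edgeR test as reported, and that changed only for the stimulus. Of the alternatives run, RP105 against anti-CD40/IL4 kept its negative sign in all of them, in both labelled genotypes. In labelled WT it passed with names of at least 30 junctions (log2 fold change -2.61), when the library size took in chromosome 15 beyond 1 Mb of the break (-2.999) and, chosen after seeing the data, without junctions mostly in repeats (-3.84), and it ranged from -5.97 to -2.09 without 1 library at a time, where -5.97 is a fitted value against a group at 0 and no estimate of size. In libraries labelled ATM-deficient it passed with TMM factors (-4.21) and with at least 30 junctions (-2.97), and it ranged from -5.94, again against a group at 0, to -1.92 without 1 library at a time. ATM deficiency against WT turned to 0.65 with TMM factors, 0.73 with DESeq2 and 0.16 in the extended span, and ranged from -1.13 to 0.37 without 1 library at a time. Its share difference turned to 0.0366 points over all junctions and 0.00696 in the extended span, with a range of -0.251 to 0.0878. Without KU55933 replicates 1 and 2 together, a choice made after seeing the data, KU55933 against WT was -0.20 and ATM-deficient against KU55933 0.13, both resting on 1 KU55933 library that is assumed to vary like the other groups. KU55933 against WT was 1.60 with TMM factors and 1.76 with DESeq2, still not called. The labelled genotypes under RP105 had 0.063 in the extended span, 0.85 without repeats and 0.46 with labels exchanged, a range of -3.43 to 2.92, and share differences of 0.00425, 0.0168 and a range of -0.0401 to 0.0288 points. The interaction was 0.20 with that library size, 1.03 without repeats, 0.65 with the run as a block and 0.55 with labels exchanged, with a range of -3.33 to 3.01. The ends of these 2 log2 ranges are fitted values with an RP105 group at 0. The correlation with switch regions ranged from -0.256 to 0.187 without 1 library at a time, and was 0.206 without the 2 farthest. The cause of these turns was not tested.

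No pairing by replicate number was detected, with same-numbered libraries correlating at -0.237 to 0.200 and others at -0.172 to 0.248. These are correlations of deviations from group means over sparse counts, so they cannot exclude a pairing. With the replicate block no call of Pim1 changed, and the log2 fold change was -2.32 for RP105 against anti-CD40/IL4 in labelled WT and 0.94 for KU55933 against untreated WT. Over the alternatives, edgeR and DESeq2 called 0 to 10 names for KU55933 against 1 as reported, 3 to 11 and 0 to 9 for the stimulus in labelled WT and labelled ATM-deficient libraries against 3 and 3, and 0 to 2 in each comparison with ATM-deficient anti-CD40/IL4 libraries against 0. The RP105 comparisons rest on 4 Pim1 junctions, and each library's depth sets the limit that its count of 0 allows.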
